A study of Mus musculus with 24 samples.

Results

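The liver response to a vector against Ahr, the gene of the aryl hydrocarbon receptor (AhR), was measured in alcohol-fed male mice that carried no other active hairpin. It was read from 6 of the 24 liver libraries of the study, chosen by their labels alone: 3 males that received a control hairpin and then the AhR hairpin, and 3 males that received a control hairpin in both injections. The whole study crosses sex, vectors against Kdm5b and Kdm5c, and the AhR vector in 8 groups of 3 mice, and by its title it asks how KDM5 histone demethylases act in each sex when alcohol injures the liver. Every mouse, controls included, received 2 injections of adeno-associated virus (AAV) and 3 weeks of the Lieber-DeCarli alcohol diet, so an effect of alcohol or of AAV itself cannot be read here.

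The male control group is labelled AAV-shControl at the first injection and AAV-shControl at the second. The AhR group is labelled AAV-shControl and then AAV-shAhR. For comparison, 2 further male groups received AAV-shKdm5b with AAV-shKdm5c first (the Kdm5 vectors) and then AAV-shControl or AAV-shAhR, and 2 female groups received the same injections as the male control and AhR groups. The labels name no mouse strain, age, promoter of the hairpin, cell type that takes up the vector, cage or hour of death. The level of Ahr was not analysed here, so the target gene gives no check of the labels. Whole liver was used, and in such bulk RNA fewer cells of a type and less RNA per cell cannot be told apart. The male sums of the 7 hepatocyte markers in the table ranged from 22431.3 to 25597.6 FPKM in controls and from 24409.8 to 25130.9 FPKM with the AhR vector.

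The 3 male controls stand apart from every other library by genes of striated muscle. Of 25 such genes, listed after the values were seen, 5 were in the table and none was expressed enough to be tested. Myl2, a myosin light chain of heart and slow muscle, measured 2.49, 2.01 and 0.99 FPKM in the male controls. The light chain gene Myl3 measured 1.55, 0.96 and 1.08 FPKM there, the myoglobin gene Mb 2.07, 2.29 and 0.62 FPKM, and Myh6, a heart myosin heavy chain, 0.60, 0.54 and 0.36 FPKM. All 4 were listed at 0 in each of the other 21 libraries, the AhR group included. The heart actin gene Actc1 measured 0.42, 1.46 and 0.64 FPKM in the male controls, 0.08, 0.08 and 0.16 FPKM with the AhR vector and at most 0.36 FPKM in any other library. Since all 3 male controls carry these transcripts, no control library without them can be used, and whatever set these controls apart cannot be told apart from the AhR vector in any comparison with them. The 2 differences of effects given below use the same controls. The AhR vector after the Kdm5 vectors, and in females, was measured without them.

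AhR is a ligand-activated transcription factor that senses planar aromatic chemicals, tryptophan metabolites and bilirubin. On binding a ligand it enters the nucleus, pairs with ARNT and binds xenobiotic response elements, whose core is GCGTG, at genes such as those of the CYP1 cytochromes. In liver it is known for control of drug metabolism, and it also affects lipid handling, immune cells and the circadian clock.

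Levels are FPKM (fragments mapped to a gene, divided by its length and by the size of the library). Differences are log2 fold changes of FPKM + 0.5, AhR vector against control vectors, with a standard error after the ±, and 3 mice on each side. A gene passed at an adjusted p under 0.05 (limma, adjusted over 2299 genes). Between the 2 groups 25 genes passed, which is 1.09% of those tested, with the spread of each gene estimated from all 24 libraries. With the AhR vector 19 were higher (0.826%) and 6 were lower (0.261%), and 319 genes had an unadjusted p under 0.05. The 2 groups did not overlap for 381 genes, or 16.6%, and all 25 called genes were among these. The median over all genes was 0.07 on the log2 scale, and 67.3% of genes lay above 0. With libraries rescaled so that this median was 0.00, 20 genes passed, 11 higher and 9 lower, and 17 of these were shared with the 25. Without AhR mouse 3 the count fell to 9, without control mouse 3 to 14 and without AhR mouse 1 to 15. With only the 6 compared libraries in the fit, 18 of the 25 did not pass.

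**Figure D1:**
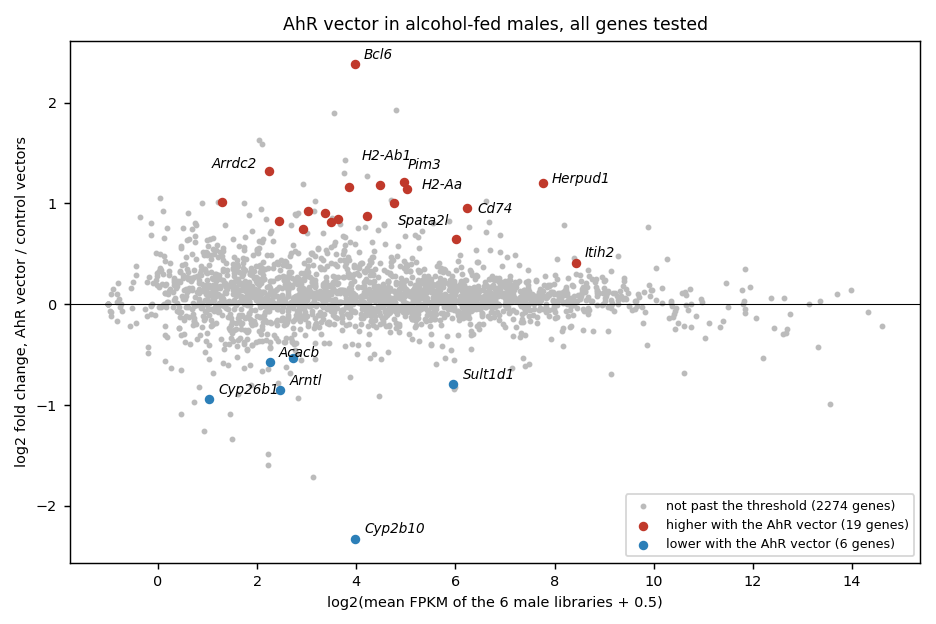
Each point is 1 of the 2299 genes tested, with its mean level in the 6 male libraries as log2(FPKM + 0.5) on the horizontal axis and its log2 fold change with the AhR vector on the vertical axis. Bcl6 (2.38) and Cyp2b10 (-2.33) lie farthest from 0 among the 25 genes past the threshold, shown in red (19 higher) and blue (6 lower).

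Promoter sequences were available from RefSeq (GRCm38.p6) for 20 of the 25 called genes, and the 250 bases before each start were searched on both strands. The windows below show where 3 motifs lie in genes described in the results, not all of which passed. The first pair comes from MHC class II genes, which present peptides to helper T cells; H2-Aa passed and H2-Eb1 did not. Promoters of this family are known to hold a Y box, an inverted CCAAT motif. Capitals mark each ATTGG or CCAAT.
H2-Aa, chr17:34287824-34287933 (minus strand): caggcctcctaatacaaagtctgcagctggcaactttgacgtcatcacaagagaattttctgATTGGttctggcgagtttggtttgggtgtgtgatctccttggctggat
H2-Eb1, chr17:34305757-34305866 (plus strand): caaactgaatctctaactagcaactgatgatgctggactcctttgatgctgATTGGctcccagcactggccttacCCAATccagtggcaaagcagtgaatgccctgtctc
Both windows hold the 8-base run ctgattgg, which starts 51 bases before the start of H2-Aa and 62 bases before that of H2-Eb1. A CCAAT or ATTGG was found in 53.8% of the 26 promoters of called genes, in 36.2% of the promoters of all tested genes and in 33.8% of all 32851 promoters. Genes with several starts count more than once in such shares. By gene, the motif was in 12 of 20 called and 771 of 1827 tested genes.

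The second pair comes from Per1, a clock gene, and Bcl6, a transcriptional repressor. Capitals mark the E-box CACGTG, the motif that the clock factors BMAL1 and CLOCK bind.
Per1, chr11:69098759-69098808 (plus strand): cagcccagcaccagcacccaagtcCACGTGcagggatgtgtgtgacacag
Bcl6, chr16:23988888-23988937 (minus strand): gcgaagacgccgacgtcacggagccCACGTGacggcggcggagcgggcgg
CACGTG was present in 11.5% of the promoters of called genes (Bcl6, Klf15 and Per1), in 7.9% of those of tested genes and in 6.0% of all. By gene, it was in 3 of 20 called and 178 of 1827 tested genes.

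The last pair shows the AhR core in one gene that rose and one that fell. Capitals mark GCGTG and its reverse complement CACGC.
Rasgef1b, chr5:99252928-99253077 (minus strand): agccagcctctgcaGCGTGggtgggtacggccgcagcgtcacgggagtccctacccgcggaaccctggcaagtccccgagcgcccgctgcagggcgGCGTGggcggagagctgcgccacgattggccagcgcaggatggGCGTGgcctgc
Cyp2b10, chr7:25897548-25897657 (plus strand): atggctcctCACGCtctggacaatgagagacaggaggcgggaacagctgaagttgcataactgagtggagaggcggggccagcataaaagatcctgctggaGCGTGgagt
The core was present in 38.5% of the promoters of called genes, against 39.4% of those of tested genes and 28.2% of all. By gene, it was in 10 of 20 called and 829 of 1827 tested genes. A match is a description of these letters and not a site of binding.

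Bcl6 had the highest log2 fold change of the genes that passed. It encodes a zinc finger repressor that, in liver, restrains fatty acid oxidation genes and takes part in the sex-biased response to growth hormone. Its level was 4.73, 3.89 and 4.56 FPKM in the 3 controls and 31.40, 29.99 and 16.26 FPKM in the 3 mice with the AhR vector. The lowest AhR mouse, number 3, still stood far above the highest control. This gives a log2 fold change of 2.38 ± 0.29 (5.20-fold, adjusted p = 0.000111). The gene lies at chr16:23965050-23988866. Spata2l (chr8:123232255-123236263), an adaptor-like paralog of SPATA2, had the same adjusted p. Controls measured 16.58, 16.60 and 19.68 FPKM against 32.54, 40.71 and 34.18 FPKM with the AhR vector, a log2 fold change of 1.00 ± 0.12. The groups stood apart by more than the spread within either.

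Of the 25 measured genes in a list of glucocorticoid and fasting responses, 6 rose and none fell: Bcl6, Arrdc2, Pim3, Herpud1, Per1 and Klf15. Of all genes 0.826% rose. The list was drawn up with earlier results of these data known, so this count is no independent result. The list had a median of 0.35, against 0.07 for all genes, with 20 members above 0, against 67.3% of all genes. Arrdc2, an arrestin-domain protein, measured 1.99, 2.14 and 2.45 FPKM in controls and 5.48, 5.63 and 7.70 FPKM with the AhR vector. The groups did not overlap, and the log2 fold change was 1.32 ± 0.23 (adjusted p = 0.00628). Herpud1, a component of the degradation machinery of the endoplasmic reticulum, measured 96.72, 163.17 and 140.15 FPKM in controls and 309.38, 266.14 and 329.08 FPKM with the vector. All 3 AhR mice stood above all 3 controls, and the difference passed (1.20 ± 0.21, adjusted p = 0.00628). The male controls had the lowest mean of the 8 groups, 133.3 FPKM, against 245.2 FPKM in males with the Kdm5 vectors and no AhR vector. Pim3, a serine/threonine kinase, rose by 1.21 ± 0.24 (adjusted p = 0.0128), and Klf15, a factor that favours gluconeogenesis from amino acids, rose by 0.64 ± 0.14 (adjusted p = 0.0249) on the log2 scale. Pim3 and Klf15 each passed in 3 of the 6 fits that leave out 1 library. Other defining members did not pass. Tat, tyrosine aminotransferase, measured 368.04, 490.79 and 714.67 FPKM in controls and 564.81, 625.75 and 979.92 FPKM with the vector, so the groups overlapped (0.47 ± 0.34, adjusted p = 0.581). Pdk4, a kinase that spares glucose in fasting, had a log2 fold change of -0.34 ± 0.23 (adjusted p = 0.571).

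Herpud1 was the only one of 12 measured genes of endoplasmic reticulum stress that passed, and the list's median was 0.17. The chaperone Hspa5 measured 140.10, 175.88 and 111.32 FPKM in controls and 200.03, 136.09 and 161.87 FPKM with the vector, with overlapping groups (0.23 ± 0.20, adjusted p = 0.68). Xbp1, a transcription factor of the same response, had a log2 fold change of 0.11 ± 0.10 (adjusted p = 0.697).

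Among 12 tested clock genes, Per1 rose, Arntl fell and 10 did not pass, with a median of 0.43. Of all genes 0.826% rose and 0.261% fell. The clock list too was drawn up with earlier results of these data known. Per1, a period protein that represses the clock's activators, measured 3.57, 5.02 and 6.70 FPKM in controls and 7.84, 8.99 and 13.60 FPKM with the AhR vector. Its groups did not overlap, mouse 3 was the highest, and the log2 fold change was 0.93 ± 0.21 (adjusted p = 0.0366). Arntl, which encodes the activator BMAL1, went the other way, from 7.19, 4.98 and 7.69 FPKM to 4.48, 3.13 and 2.75 FPKM (-0.85 ± 0.17, adjusted p = 0.0128). Both genes passed in only 2 of the 6 fits that leave out 1 library, and over all alternatives the adjusted p reached 0.219 for Per1 and 0.183 for Arntl. Dbp, an output gene activated by BMAL1, measured 8.96, 10.77 and 2.87 FPKM in controls and 16.35, 17.65 and 22.60 FPKM with the vector. Control mouse 3 was low and the groups did not overlap, but the difference did not pass (1.43 ± 0.44, adjusted p = 0.136). Ciart, a repressor of the clock, had 1.50, 1.05 and 1.56 FPKM against 2.59, 6.15 and 8.71 FPKM and did not pass either (1.63 ± 0.55, adjusted p = 0.158). The hour of tissue collection is not in the labels, and its part in these values was not tested.

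Of the 6 tested genes of a 15-gene MHC class II list, 3 rose with the AhR vector (H2-Ab1, H2-Aa and Cd74), none fell and 3 did not pass. Of all genes 0.826% rose. This list too was drawn up with earlier results of these data known, so its counts and median are no independent result. All 6 lay above 0, against 67.3% of all genes, with a median of 0.99. H2-Ab1, a class II beta chain at chr17:34263227-34269418, measured 14.50, 14.29 and 10.85 FPKM in controls and 30.05, 30.21 and 30.87 FPKM with the vector (1.18 ± 0.19, adjusted p = 0.00314). H2-Aa, its alpha chain, measured 17.24, 21.05 and 20.49 FPKM against 42.18, 38.26 and 52.21 FPKM (1.15 ± 0.21, adjusted p = 0.00809). In both genes the lowest AhR mouse was above the highest control by more than the range of the controls. Cd74, the invariant chain that guides class II molecules to their peptides, measured 45.30, 55.48 and 51.15 FPKM against 94.31, 88.81 and 113.88 FPKM (0.96 ± 0.19, adjusted p = 0.0128). H2-Eb1, another beta chain, measured 5.09, 5.09 and 6.22 FPKM against 10.56, 11.61 and 12.65 FPKM, without overlap, and stood just outside the threshold (1.02 ± 0.26, adjusted p = 0.0563). In these 4 genes the log2 fold changes lay between 0.96 and 1.18, with all 3 AhR mice above all 3 controls. Such separation held for 12.3% of all genes. H2-DMb1, a subunit of the peptide exchange factor, and the protease Ctss did not pass, at 0.73 ± 0.23 (adjusted p = 0.152) and 0.34 ± 0.18 (adjusted p = 0.40). Without AhR mouse 3, H2-Aa and Cd74 missed the threshold at adjusted p = 0.057 and 0.0674, while H2-Ab1 passed without each library in turn. Over all alternatives the adjusted p of H2-Aa ran from 0.00303 to 0.057 and that of Cd74 from 0.00908 to 0.0674.

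Class II genes are expressed by antigen-presenting cells, so markers of such cells were read beside them. The 9 measured Kupffer cell and macrophage markers all lay above 0, against 67.3% of all genes, with a median of 0.22 and none past the threshold. All 8 stellate cell and matrix markers (median 0.25) and all 7 hepatocyte markers (median 0.04) lay above 0 too, as did 5 of 8 sinusoidal endothelial markers. The summed level of the macrophage markers was 233.5 to 330.6 FPKM in controls and 295.2 to 409.9 FPKM with the AhR vector, with overlap. The summed class II level was 101.8 to 120.3 FPKM against 201.7 to 241.5 FPKM, without overlap. C1qa, a complement component made by Kupffer cells, measured 27.37, 36.41 and 37.24 FPKM against 35.87, 45.20 and 45.30 FPKM (0.32 ± 0.17, adjusted p = 0.40). None of the listed markers of dendritic cells, B cells, T and NK cells, or monocytes and neutrophils was analysed here. The part of cell numbers in the class II result was not tested. Of 5 MHC class I genes none passed, with a median of 0.15. Among them B2m, the shared light chain, had a log2 fold change of 0.15 ± 0.08 (adjusted p = 0.43).

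Interferon-response genes, also listed with earlier results of these data known, lay above 0 as well. All 17 measured genes of the 39 listed lay above 0, with a median of 0.65, and in 13 of them the groups did not overlap. Of all genes tested, 67.3% lay above 0, and 12.3% had every AhR mouse above every control. Gbp2 and Igtp rose, against 0.826% of all genes, and the other 15 did not pass. Both encode interferon-inducible GTPases of cell-autonomous defence. Gbp2 measured 0.97, 1.23 and 1.12 FPKM in controls and 3.26, 2.23 and 2.80 FPKM with the AhR vector (1.01 ± 0.20, adjusted p = 0.0128). Igtp measured 9.70, 7.32 and 8.18 FPKM against 17.23, 16.56 and 12.86 FPKM (0.85 ± 0.20, adjusted p = 0.0472). Neither gene overlapped between the groups, and in both AhR mouse 1 was the highest. Igtp passed in only 1 of the 6 fits that leave out 1 library and not after rescaling, and Gbp2 in 4, failing without AhR mouse 1 or 3. Ifi47, of the same GTPase family, stood just outside the threshold, with 7.08, 6.54 and 7.76 FPKM against 13.56, 12.53 and 9.96 FPKM (0.71 ± 0.17, adjusted p = 0.0503). Irf7, a factor that amplifies interferon production, did not pass at 0.75 ± 0.20 (adjusted p = 0.065). Guanylate-binding and immunity-related GTPases have near copies, so reads may be shared within these families. Of 10 NF-kB and cytokine genes only Spata2l passed, with a median of 0.26, and none of 16 acute phase genes did, with a median of 0.10.

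**Figure D2:**
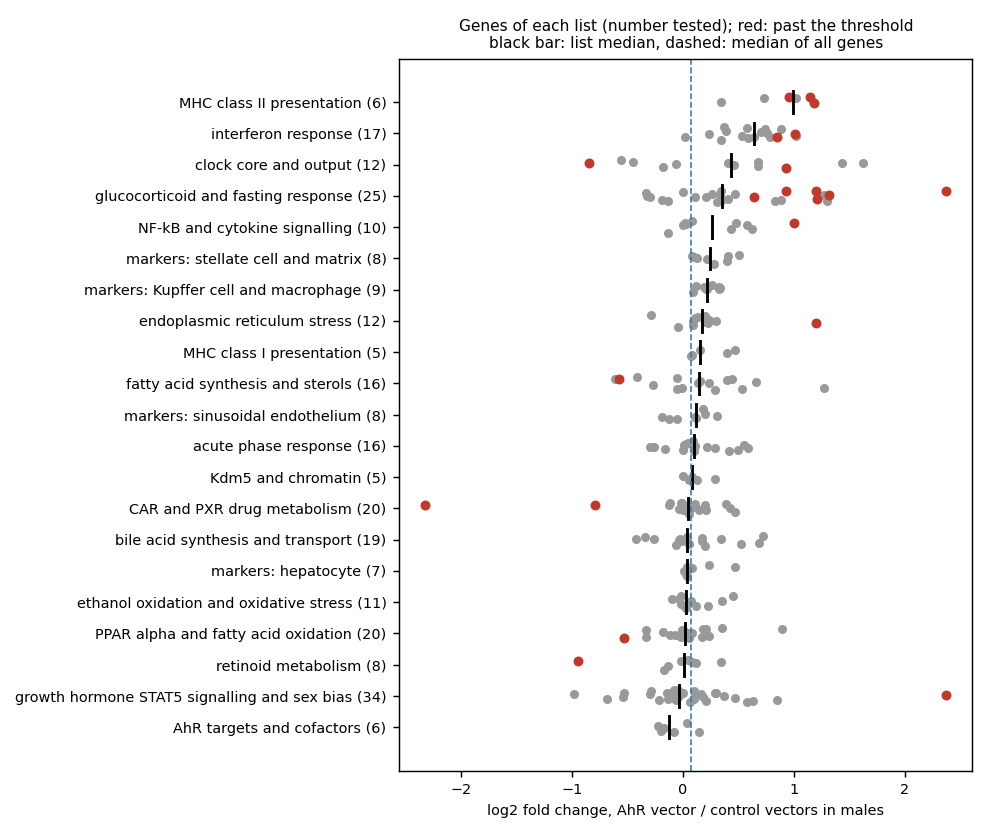
Each row is a gene list, with the number of its tested genes in brackets, and each point is a gene's log2 fold change with the AhR vector in males. MHC class II (median 0.99) and interferon-response genes (median 0.65) lie to the right of the median of all genes (0.07), and the AhR target list (median -0.12) lies to its left. The lists were drawn up with earlier results of these data known, so these positions are no independent result.

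Drug metabolism genes as a list stayed near the median of all genes, and its 2 called members fell. The list of targets of the receptors CAR and PXR had a median of 0.05 over 20 genes. Of all genes 0.261% fell. Cyp2b10, the cytochrome used as the readout of CAR, measured 9.96, 26.55 and 40.86 FPKM in controls and 2.85, 8.56 and 2.56 FPKM with the AhR vector. Controls spread widely, yet the highest AhR mouse stayed below the lowest control. The log2 fold change was -2.33 ± 0.53 (5.01-fold lower, adjusted p = 0.0366), and the gene passed in only 2 of the 6 fits that leave out 1 library. Its near relatives did not pass: Cyp2b9 was at 0.47 ± 0.50 (adjusted p = 0.748) and Cyp2b13 lay at or below 0.27 FPKM in all 6 libraries. Reads shared among the Cyp2b genes cannot be separated here. Sult1d1, a sulfotransferase of catecholamines and drugs, measured 71.32, 73.90 and 90.16 FPKM against 39.56, 51.61 and 43.94 FPKM (-0.79 ± 0.17, adjusted p = 0.0249), with no overlap, and passed in 3 of those 6 fits.

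Genes that AhR itself is known to drive did not pass. Of 21 listed AhR targets and cofactors 6 were tested, with a median of -0.12. Cyp1a2, a classical hepatic target, measured 163.88, 238.46 and 123.80 FPKM in controls and 185.45, 160.29 and 138.11 FPKM with the AhR vector. The AhR mice lay within the range of the controls (-0.08 ± 0.22, adjusted p = 0.931). The 95% interval of this log2 difference ran from -0.55 to 0.39. Nfe2l2, the antioxidant regulator NRF2, was at -0.17 ± 0.11 (adjusted p = 0.538) and Ugt1a6a, a glucuronosyltransferase, at -0.20 ± 0.19 (adjusted p = 0.709). In 2 of the 6 genes, Nfe2l2 among them, every AhR mouse lay below every control, against 4.31% of all genes. Cyp1a1, Cyp1b1, Ahrr, Tiparp and Nqo1 were not analysed here.

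In lipid and vitamin A metabolism Acacb and Cyp26b1 fell. Acacb, the acetyl-CoA carboxylase whose product malonyl-CoA restrains mitochondrial fatty acid oxidation, measured 5.05, 5.27 and 5.26 FPKM in controls and 2.97, 3.52 and 3.50 FPKM with the vector. The groups were tight and apart (-0.57 ± 0.14, adjusted p = 0.0472), but the gene did not pass in any of the 6 fits that leave out 1 library. It was the only called gene of 16 in fatty acid and sterol synthesis, whose median was 0.14. Fasn, the fatty acid synthase, measured 14.60, 15.95 and 14.70 FPKM against 14.34, 8.62 and 11.18 FPKM (-0.42 ± 0.21, adjusted p = 0.376). In Fasn 1 AhR mouse lay close to the controls. Abcd4, which the list of PPAR alpha and fatty acid oxidation holds but which is known to carry vitamin B12 out of lysosomes, fell by 0.54 on the log2 scale (SE 0.12, adjusted p = 0.0366), and passed in only 1 of those fits. The other 19 of that list did not pass, and its median was 0.02. Cyp26b1, which degrades retinoic acid, measured 2.01, 2.61 and 1.87 FPKM against 1.11, 0.48 and 1.15 FPKM (-0.94 ± 0.20, adjusted p = 0.0249). It passed in 4 of those fits, while the other 7 retinoid genes did not pass and the median of all 8 was 0.01. No gene passed among 19 of bile acid synthesis and transport (median 0.04) or 11 of ethanol oxidation and oxidative stress (median 0.02). Cyp2e1, the ethanol-inducible cytochrome, measured 7245.13, 7570.23 and 6517.78 FPKM against 6646.21, 6400.77 and 6832.72 FPKM (-0.10 ± 0.14, adjusted p = 0.822).

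Of 34 genes tied to growth hormone signalling and sex bias, Bcl6 alone passed, and the median was -0.03. Mup7, a male-biased urinary protein, measured 10309.88, 15302.19 and 21520.68 FPKM in controls and 12333.22, 3758.15 and 9411.74 FPKM with the AhR vector, with overlapping groups (-0.99 ± 0.58, adjusted p = 0.479). Kdm5c, which the Kdm5 vectors target in other groups, measured 6.39, 6.80 and 7.21 FPKM against 6.92, 7.69 and 7.81 FPKM and did not pass (0.13 ± 0.11, adjusted p = 0.68). None of the other 4 chromatin genes passed, and the median of the 5 was 0.08. Markers of other liver cells gave medians of 0.04 over 7 hepatocyte genes, 0.11 over 8 sinusoidal endothelial genes and 0.25 over 8 stellate cell and matrix genes, with none called. The single cholangiocyte marker, Sox9, was at -0.68 ± 0.20 (adjusted p = 0.112).

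Outside the lists 7 genes were called, and all were higher. Ip6k2, an inositol hexakisphosphate kinase, measured 12.12, 13.38 and 12.22 FPKM in controls and 24.74, 23.99 and 21.88 FPKM with the vector, with little spread in either group (0.88 ± 0.16, adjusted p = 0.00761). Frmd4b, a scaffold protein, measured 8.62, 5.50 and 5.93 FPKM against 10.59, 13.33 and 14.66 FPKM (0.91 ± 0.16, adjusted p = 0.00628). Every AhR mouse stood above every control in both. Itih2, a heavy chain of the inter-alpha-trypsin inhibitors that is transferred to hyaluronan, had the smallest called change, 0.41 ± 0.08 (adjusted p = 0.0128). Rasgef1b, a Ras-family exchange factor, was at 0.83 ± 0.19 (adjusted p = 0.0359) and Tcim at 1.16 ± 0.26 (adjusted p = 0.0359). Mcm10, a DNA replication factor, and Irf2bp2, a corepressor, were nearest to the threshold, at 0.81 ± 0.20 and 0.75 ± 0.18 (adjusted p = 0.049 each). Mcm10 and Irf2bp2 passed in none of the 6 fits that leave out 1 library, Tcim in 1, Rasgef1b in 2 and Itih2 in 3. Over all 25 genes, 7 passed without each of the 6 libraries in turn: Bcl6, Spata2l, H2-Ab1, Frmd4b, Arrdc2, Herpud1 and Ip6k2. Of these, Frmd4b and Herpud1 did not pass with only the 6 compared libraries in the fit. When libraries were rescaled, 8 genes no longer passed: Itih2, Klf15, Tcim, Rasgef1b, Per1, Igtp, Mcm10 and Irf2bp2. Male controls had the lowest mean of the 8 groups in Frmd4b, Arrdc2, Herpud1, Ip6k2, H2-Ab1, H2-Aa, Cd74, Gbp2, Klf15, Tcim, Per1 and Igtp. They did not in the other higher genes, Bcl6, Spata2l, Pim3, Itih2, Rasgef1b, Mcm10 and Irf2bp2. The part of these low control levels in the calls was not tested.

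**Figure D3:**
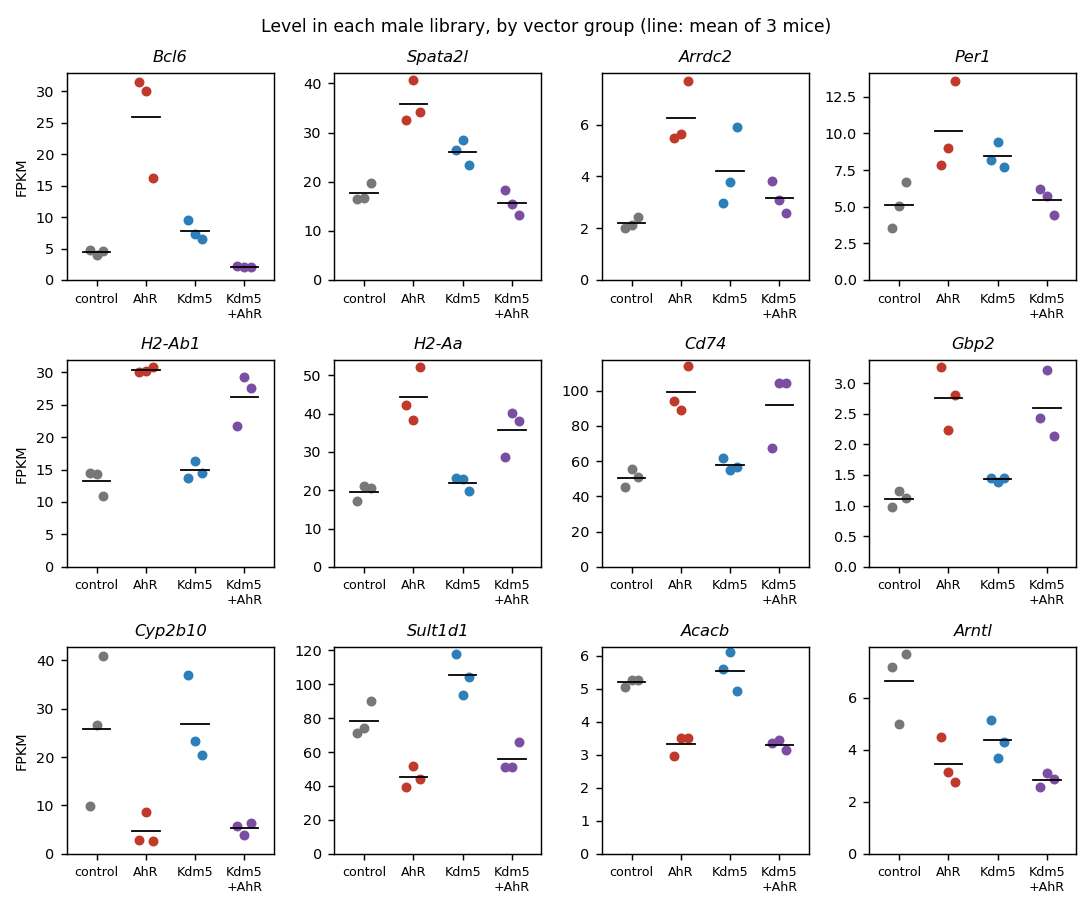
FPKM (vertical axis) of 12 genes in each of the 12 male libraries, by vector group, with points for mice and a line for the mean of 3 mice. In Bcl6 the AhR group (16.26 to 31.40 FPKM) is the highest and the group with the Kdm5 and AhR vectors (1.99 to 2.28 FPKM) the lowest, while Cyp2b10 is low in both groups that received the AhR vector.

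The same AhR vector was given to males that already carried the Kdm5 vectors, which allows a repeat in other mice on another background. There 21 genes passed, 0.913% of those tested. The 19 genes that were higher with the AhR vector alone split into 7 above 0 and 12 below 0, with a median of -0.22. Of all genes 47.8% lay above 0 there, with a median of -0.01. In the list of 25 glucocorticoid and fasting genes, 21 lay below 0, with a median of -0.41. Bcl6 fell, from 9.57, 7.38 and 6.57 FPKM with the Kdm5 vectors to 2.28, 1.99 and 2.00 FPKM with the AhR vector added (-1.67 ± 0.29, adjusted p = 0.00851). The groups did not overlap and the order was opposite to that without the Kdm5 vectors. Spata2l fell as well, by 0.73 on the log2 scale (adjusted p = 0.00851), from 26.47, 28.56 and 23.39 FPKM to 18.26, 15.53 and 13.19 FPKM. H2-Ab1 rose, from 13.69, 16.36 and 14.52 FPKM to 21.70, 29.25 and 27.63 FPKM (0.79 ± 0.19, adjusted p = 0.0493). All 6 class II genes lay above 0 there, against 47.8% of all genes, with a median of 0.66. The 9 macrophage markers also all lay above 0 there, with a median of 0.34 and none past the threshold. Their part in the class II values was not tested. Every one of the 6 genes that were lower with the AhR vector alone was below 0 here too (median -0.60), as were 1191 of all 2299 genes. Of the 6, Cyp26b1 lay near 0 (-0.07 ± 0.20, adjusted p = 0.897). Sult1d1 (-0.91, adjusted p = 0.0162) and Acacb (-0.66, adjusted p = 0.0334) passed. Cyp2b10 went from 36.93, 23.27 and 20.44 FPKM to 5.82, 3.83 and 6.33 FPKM and just missed it (-2.21, adjusted p = 0.0506). No gene passed in this background when Kdm5 mouse 1 or the third mouse with both vectors was left out (limma, 282 and 311 genes with an unadjusted p under 0.05).

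The difference between the AhR effects without and with the Kdm5 vectors was itself tested, and 37 genes passed (1.61%). Of the 25 genes called with the AhR vector alone 12 were among them, all from the 19 higher ones. The 25 were selected on an effect that this difference contains, so the count of 12 is no independent result. Bcl6 had the largest difference, 4.05 ± 0.41 on the log2 scale, followed in p by Spata2l at 1.73 ± 0.17 (adjusted p = 4.43e-06 each). Ip6k2, Per1, Arrdc2, Rasgef1b, Pim3 and Frmd4b differed at adjusted p = 0.0158, and Herpud1, Irf2bp2, Klf15 and Tcim at adjusted p = 0.0304. Bcl6 and Spata2l passed without each of the 12 male libraries in turn. The count fell to 7 without AhR mouse 3 and to 5 without the second mouse with both vectors. None of the 6 lower genes and no class II gene passed this test. The 95% interval of the difference for H2-Ab1 was -0.16 to 0.95 and for Cyp2b10 -1.69 to 1.47 on the log2 scale. All 37 genes had log2 fold changes of opposite sign without and with the Kdm5 vectors, among them Id2 and Camk2b, which lie outside the 25. Id2, an inhibitor of basic helix-loop-helix factors, measured 77.59, 88.28 and 73.39 FPKM in controls and 47.25, 39.53 and 46.61 FPKM with the AhR vector, against 38.18, 57.08 and 61.43 FPKM with the Kdm5 vectors and 76.19, 78.45 and 98.84 FPKM with both. Its difference of effects was -1.54 ± 0.29 (adjusted p = 0.0158), and neither single effect passed, at adjusted p = 0.0503 and 0.0984. Camk2b, a calcium/calmodulin kinase subunit, went from 2.01, 1.63 and 1.44 FPKM to 0.37, 0.73 and 0.80 FPKM and, with the Kdm5 vectors, from 0.67, 1.53 and 2.13 FPKM to 4.08, 3.90 and 2.16 FPKM (difference -2.00 ± 0.40, adjusted p = 0.0158).

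**Figure D4:**
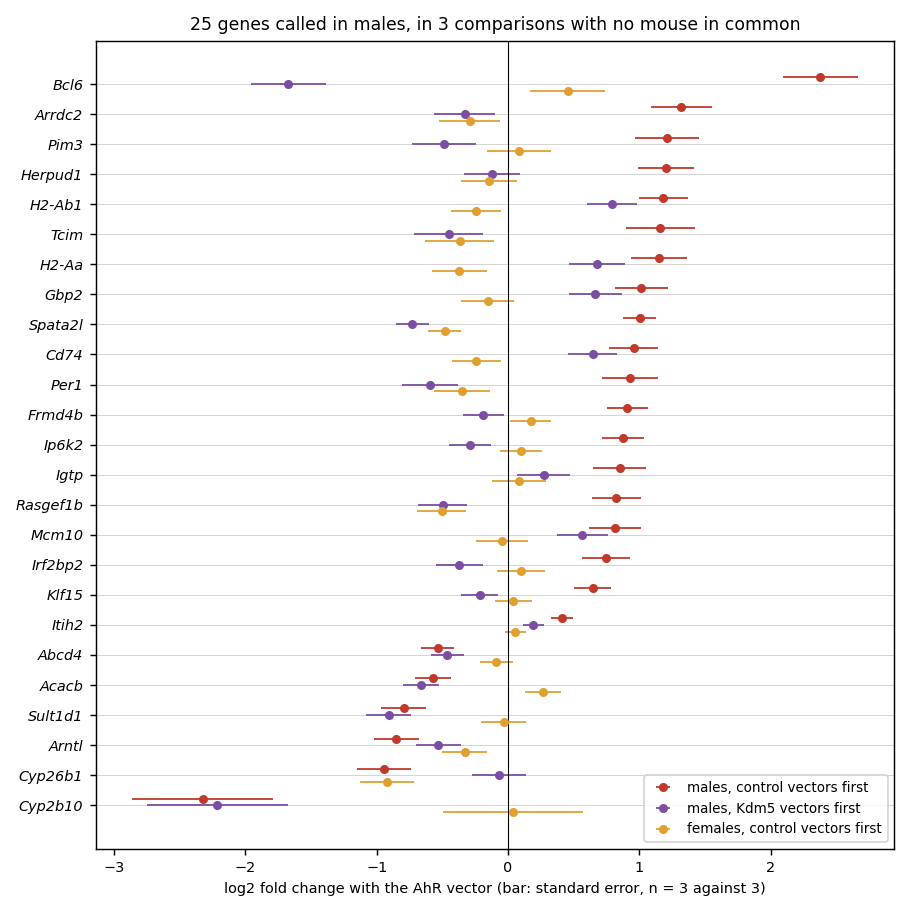
Log2 fold change (horizontal axis) of the 25 called genes with the AhR vector. It is shown in males after control vectors, in males after the Kdm5 vectors, and in females after control vectors. Bars are standard errors for 3 mice against 3, with the spread of each gene estimated from all 24 libraries. The 6 lower genes keep their sign in both male comparisons, with Cyp26b1 near 0 (-0.07) after the Kdm5 vectors. Of the 19 higher genes 12 lie below 0 after the Kdm5 vectors, as do 1191 of all 2299 genes tested.

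In females the AhR vector gave 5 called genes (0.217%), none of them among the 25: Afp, Igf2, Mavs, Erc1 and Ppp2r5e, all higher. Erc1 and Ppp2r5e are named only to complete this count, after their values were seen. Of the 19 genes higher in males, 8 lay above 0 and 11 below 0 in females, with a median of -0.14. Of all genes 47.3% lay above 0 there. In females the 6 class II genes were all below 0 (median -0.25), none past the threshold. The 9 macrophage markers were all below 0 as well (median -0.13), none past the threshold, while 47.3% of all genes lay above 0. H2-Ab1 measured 34.03, 29.44 and 30.64 FPKM in female controls and 21.71, 27.69 and 30.39 FPKM with the vector. Female controls thus stood at about the level that males had with the AhR vector. The summed class II level was 246.4 to 281.8 FPKM in female controls, above all male controls. Macrophage markers also differed by sex, with 491.3 to 537.8 FPKM in female controls against 233.5 to 330.6 FPKM in male controls, and their part in the class II levels was not tested. Cyp26b1 measured 2.76, 2.29 and 3.01 FPKM in female controls and 1.61, 1.22 and 0.79 FPKM with the vector, without overlap, and just missed the threshold (-0.92, adjusted p = 0.053).

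The difference between the sexes in the AhR effect passed for 13 genes (0.565%). Of these 8 belonged to the 25, all from the higher ones: Spata2l (1.48 ± 0.17, adjusted p = 5.25e-05), H2-Ab1 (1.43 ± 0.27, adjusted p = 0.0178), H2-Aa (1.52 ± 0.30, adjusted p = 0.0258), Rasgef1b, Arrdc2, Bcl6, Cd74 and Herpud1. The 25 were selected on the male effect that this difference contains, so the count of 8 is no independent result. Spata2l passed without each of the 12 libraries in turn and H2-Ab1 without 10 of the 12. The largest difference was that of Afp, alpha-fetoprotein, a fetal liver gene. It lay at or below 1.01 FPKM in all 6 male libraries. In females it measured 0.05, 0.23 and 0.33 FPKM in controls and 10.13, 16.89 and 20.43 FPKM with the vector, a difference of effects of -3.99 ± 0.41 (adjusted p = 1.13e-05). The fetal growth factor Igf2 followed the same order, with 0.24, 0.31 and 0.30 FPKM against 0.08, 0.19 and 0.31 FPKM in males. In females it measured 0.44, 0.16 and 0.19 FPKM against 1.07, 1.17 and 1.05 FPKM (difference -1.27 ± 0.23, adjusted p = 0.0158). Of these Igf2 values only those of females with the AhR vector reached 1 FPKM, the level of the filter. The gene was not tested under the filter of 5 FPKM. Leaving out mouse 1 of either female group reduced the count of genes that differed by sex to 4. Leaving out the first male control gave 5, and leaving out the third male with the AhR vector gave 6.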

How the data were processed

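RNA was measured by sequencing in whole liver of 24 mice. Per the labels' protocols, RNA came from a Qiagen miniprep kit and libraries from standard BGI protocols, with nothing on strand, so antisense and overlapping genes cannot be separated. The submitters' processing notes name HISAT, Bowtie2 and GRCm38.p6. How reads were counted, and which versions ran, is not given in the sources used here. The deposited table gives FPKM per gene and library, per the file headers. It holds 2372 genes, and how they were chosen is not stated, so an adjusted p holds within this table. FPKM removes read depth, which is unknown here: only 8 genes had steps of single fragments clear enough to read. The FPKM of the table sum to 380206 to 429780 in the male controls and 383094 to 401409 in the AhR group, and Mup genes took 14.04% to 25.71% of these sums.

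The test took the 2299 genes that reached 1 FPKM in 3 or more libraries. Values were taken as log2(FPKM + 0.5), which understates changes of low genes. They were fitted with limma 3.58.1 in R 4.3.3 on the 24 libraries together (1 mean for each group, trended and robust variance moderation, 16 residual degrees of freedom). Tests were two-sided with Benjamini-Hochberg adjustment over 2299 genes and a threshold of 0.05. The 5 comparisons were the AhR vector in males, in females and added to the Kdm5 vectors in males, and the differences of the first from the other 2. The procedure was tested on simulated data. Each library is a separate mouse per the labels, mice were numbered in sample order, and p-values measure the spread between mice. The members and gene lists were chosen with earlier results of these data known. Of 529 genes in 26 lists, 260 were tested. Named genes were all those past the threshold, known AhR targets, up to 6 members per list with the smallest p, and up to 10 past the threshold in each difference. Alternatives were another scaling, other filters, other pseudocounts, library weights, plain variance moderation, fewer libraries in the fit and leaving out each library. Ahr and Kdm5b were not analysed here. Certain further genes are left out of the text.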

Additional observations from a re-analysis of the deposited data

Results flagged for a closer look

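These genes are given because their response to the AhR vector differed between 2 groups of mice by a test of the difference itself (limma, adjusted p under 0.05). Values are differences of log2 fold changes with their standard errors. All of them use the 3 male controls, which alone carried the heart-muscle transcripts Myl2, Myl3, Mb and Myh6, and the part of this in the values was not tested.

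Between the sexes, as males minus females, Afp had -3.99 ± 0.41, Igf2 -1.27 ± 0.23, Spata2l 1.48 ± 0.17, H2-Ab1 1.43 ± 0.27, H2-Aa 1.52 ± 0.30 and Cd74 1.20 ± 0.26. Bcl6 had 1.92 ± 0.41, Arrdc2 1.61 ± 0.33, Kcnk5 1.39 ± 0.30, Herpud1 1.34 ± 0.30, Rasgef1b 1.33 ± 0.27 and Ggh 0.76 ± 0.16. Of these 12 genes, Afp, Spata2l and Igf2 passed without each of the 12 libraries in turn, with Igf2 near the filter of 1 FPKM. In Bcl6 the call rested on most libraries, since it passed in 4 of the 12 fits (highest adjusted p = 0.105).

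Between males without and with the Kdm5 vectors, Bcl6 had 4.05 ± 0.41 and Spata2l 1.73 ± 0.17. Pim3 had 1.70 ± 0.34, Arrdc2 1.65 ± 0.33, Tcim 1.61 ± 0.37, Per1 1.52 ± 0.30, Herpud1 1.33 ± 0.30, Rasgef1b 1.32 ± 0.27 and Kcnk5 1.31 ± 0.30. Ip6k2 had 1.17 ± 0.23, Irf2bp2 1.12 ± 0.26, Prob1 1.11 ± 0.21, Frmd4b 1.10 ± 0.22, Pnn 1.07 ± 0.22 and Klf15 0.86 ± 0.20. Camk2b had -2.00 ± 0.40 and Id2 -1.54 ± 0.29. Of these 17 genes, Bcl6, Spata2l, Prob1 and Id2 passed without each of the 12 libraries in turn.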

How the results depend on the processing

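For the AhR vector alone in males, 59 genes passed with library weights, 9 with only the 6 compared libraries in the fit, 40 with the 12 male libraries, and 9 to 26 without 1 library each, against 25. The 9 called without AhR mouse 3 shared 8 genes with the 25. In females, against 5 called, the counts were 9 with median-of-ratios scaling, 3 with a filter of 5 FPKM, 8 with a pseudocount of 1, 9 without trend and robust moderation, 1 with only the compared groups, and 3 to 12 without 1 library each. After the Kdm5 vectors, against 21, they were 8 with the 5 FPKM filter, 235 with library weights, 37 with only the compared groups, and 0 to 14 without 1 library each. For the difference between the sexes, against 13, they were 23 with weights, 6 with only the compared groups and 4 to 19 without 1 library each. For the difference by Kdm5 vectors, against 37, they were 23 with median-of-ratios scaling, 97 with weights, 13 with only the compared groups and 5 to 44 without 1 library each. The fits on fewer libraries have fewer residual degrees of freedom by construction. For the other settings the cause was not tested. No named gene changed direction while past the threshold. Of the alternatives run on called genes, 102 missed the threshold and 271 kept it, and 5 called genes passed under every setting: Bcl6, Spata2l, H2-Ab1, Arrdc2 and Ip6k2. No paired analysis was possible because mice were numbered in sample order and the numbers pair nothing. With FPKM only, the read depth and the counting error of low genes such as Gbp2 and Cyp26b1 are unknown.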
